A study of Mus musculus with 6 samples.

Results

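The genic flank downstream of Wnt4 is the stretch from 136932109 to 137232108 on mouse chromosome 4 (build mm9), which lies over 100 and up to 400 kb beyond the 4C viewpoint at the Wnt4 promoter. Its members are the restriction fragment ends listed there in the deposited tables, chosen by position alone: 804 of the 369081 ends listed for the chromosome. 4C-seq (circularised chromosome conformation capture with sequencing) counts the fragments ligated to one chosen fragment after crosslinking, so the read count at an end reflects how often that end lay near the viewpoint. The study used 6 libraries from 2 mouse mammary epithelial cell lines, 3 of BC44 and 3 of HC11, and its title places Wnt4 regulation by GRHL and PGR at its centre. Both lines grew in RPMI1640 with 10% FBS and insulin at 5 µg/ml, and the HC11 medium also held EGF at 10 ng/ml, so the line and EGF cannot be told apart. Crosslinking was by 2% formaldehyde over 10 min in both lines, with DpnII (cutting at GATC) as the first enzyme and NlaIII (cutting at CATG) as the second. The labels give replicate numbers but not whether replicates were separate cultures, so p-values measure only the spread between these libraries, which may be technical. Each line is a single established cell line grown in culture dishes, not mammary tissue.

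Wnt4 encodes a secreted Wnt ligand, a known target of progesterone signalling in the mammary epithelium. Contact with a viewpoint normally falls with distance along the chromosome, and a stretch that stands above that fall is read as a candidate loop. PGR is the progesterone receptor and GRHL proteins are grainyhead-like transcription factors of epithelia. The viewpoint end at 136832108 lay 1.30 kb before the annotated start of Wnt4 at 136833404, and downstream here means higher coordinates, across and beyond the Wnt4 gene.

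The flank overlapped 7 protein-coding genes of GENCODE release M1. In order from the viewpoint, Gm13011 (named Cela3a by RefSeq; minus strand, chr4:136957469-136965706) and Cela3b (minus, chr4:136976914-136986455) belong to the chymotrypsin-like elastases, digestive proteases known from the pancreas. 1700013G24Rik (plus, chr4:137009199-137011376) is a short gene named from a cDNA clone. Hspg2 (plus, chr4:137024634-137126545) encodes perlecan, a heparan sulfate proteoglycan of basement membranes, and spans 101912 bp of the flank. Ldlrad2 (minus, chr4:137126791-137130558) follows it directly. Usp48 (plus, chr4:137149670-137214452) encodes a deubiquitinating enzyme. Rap1gap (plus, chr4:137220641-137285782), which encodes a GTPase-activating protein for Rap1, enters the flank with its first 11468 bp. A pseudogene (Gm13004, Rpl31-ps10 in RefSeq), a processed transcript (Gm13010) and a miscellaneous RNA gene (BX000694.1) complete the annotation. Of the 804 ends, 455 lay in introns and 86 in exons of the coding genes, 263 lay between coding genes, and none lay in more than 1 coding gene. They came from 474 DpnII fragments, 330 of which had both ends listed, so many members share a fragment.

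Sequences are shown for the ends that carried the most reads, since the 10 strongest ends of each library carried 13.9% to 24.1% of its flank reads. They are the members of the 10 ends with the highest mean level that had reads in all 6 libraries, plus the end with the highest mean, which had reads in 5 and was added after its values were seen. Each is read from the mm9 reference, 5′ to 3′, from the DpnII cut into the fragment for 300 bases, on the strand given in brackets. Capitals mark the GATC at the cut and each CATG, the NlaIII site, where the captured piece could be cut again.
end at chr4:136934155-136934454 (+): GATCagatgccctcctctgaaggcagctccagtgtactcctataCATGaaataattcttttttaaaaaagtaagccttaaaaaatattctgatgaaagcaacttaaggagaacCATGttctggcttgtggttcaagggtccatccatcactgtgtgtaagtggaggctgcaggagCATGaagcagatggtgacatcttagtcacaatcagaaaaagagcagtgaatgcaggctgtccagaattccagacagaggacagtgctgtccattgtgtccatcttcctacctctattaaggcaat
end at chr4:136944916-136945215 (-): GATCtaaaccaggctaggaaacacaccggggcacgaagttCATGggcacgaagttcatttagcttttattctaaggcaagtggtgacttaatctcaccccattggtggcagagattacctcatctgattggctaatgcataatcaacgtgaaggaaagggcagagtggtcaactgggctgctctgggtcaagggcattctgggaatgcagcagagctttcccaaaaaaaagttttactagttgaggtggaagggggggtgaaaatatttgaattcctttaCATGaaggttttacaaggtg
end at chr4:136946175-136946474 (+): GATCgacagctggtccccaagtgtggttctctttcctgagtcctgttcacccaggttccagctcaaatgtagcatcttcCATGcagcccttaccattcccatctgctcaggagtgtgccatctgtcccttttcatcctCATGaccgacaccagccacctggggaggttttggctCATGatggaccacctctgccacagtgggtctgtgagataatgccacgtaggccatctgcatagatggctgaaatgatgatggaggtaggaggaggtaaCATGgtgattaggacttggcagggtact
end at chr4:136948235-136948534 (+): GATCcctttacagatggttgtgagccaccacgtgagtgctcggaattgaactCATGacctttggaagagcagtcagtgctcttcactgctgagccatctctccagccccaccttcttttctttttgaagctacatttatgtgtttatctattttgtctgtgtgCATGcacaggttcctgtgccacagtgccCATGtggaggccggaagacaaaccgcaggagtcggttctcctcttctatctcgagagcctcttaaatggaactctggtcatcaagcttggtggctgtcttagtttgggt
end at chr4:136983876-136984175 (+): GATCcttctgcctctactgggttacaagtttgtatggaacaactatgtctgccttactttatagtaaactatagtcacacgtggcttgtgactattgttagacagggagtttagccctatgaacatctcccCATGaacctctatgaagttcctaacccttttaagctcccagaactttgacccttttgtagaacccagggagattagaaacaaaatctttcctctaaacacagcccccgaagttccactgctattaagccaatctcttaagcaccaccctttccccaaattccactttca
end at chr4:137007177-137007476 (-): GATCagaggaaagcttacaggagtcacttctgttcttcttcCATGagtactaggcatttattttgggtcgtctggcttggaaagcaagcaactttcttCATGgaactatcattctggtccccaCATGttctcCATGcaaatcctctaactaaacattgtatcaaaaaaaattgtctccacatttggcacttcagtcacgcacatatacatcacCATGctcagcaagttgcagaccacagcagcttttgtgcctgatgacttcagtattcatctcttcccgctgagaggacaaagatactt
Counted from the start of the GATC, the first CATG ended at base 48, 44, 83, 56, 135 and 45 in these 6 sequences, in the order shown. The median over all flank ends was 126, and only the end at 136983876 lay above it. The end at 136983876 lies in an intron of Cela3b, and the other 5 lie between coding genes.

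Depth differed between libraries, and levels are given as RPM per end: reads scaled by each library's total more than 2 kb from the viewpoint end (RPM), divided by the number of listed ends. Total reads per library ran from 96690 (HC11 replicate 2) to 1755373 (HC11 replicate 1). The flank received 59402, 53318 and 60767 reads in BC44, against 77004, 6523 and 49634 reads in HC11. The HC11 replicate 2 library was thus the shallowest here too, with 8.11 reads per flank end against 61.7 to 95.8 in the others. Both replicate 1 libraries stood apart at the viewpoint end itself, which held 40.5% (BC44) and 44.3% (HC11) of their reads and at most 0.466% in the other 4. PCR copies of 1 ligation product cannot be recognised in these counts, so intervals cover counting error only. Where a sentence gives 3 values for a line, they are those of replicates 1, 2 and 3 in that order.

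By the mean of each line, contact was higher in the stretch before Gm13011 and over the elastase genes than over Usp48 and Rap1gap at the far edge. HC11 replicate 3 differed, with 60.2 (Gm13011) and 86.0 (Cela3b) RPM per end against 93.6 over Usp48. In HC11 there was no further steady fall beyond 200 kb. In steps of 50 kb, the BC44 mean was 139.5 ± 6.66 RPM per end (SD, n = 3) at 100 to 150 kb, 115 ± 18.4 at 150 to 200 kb, 77.7 ± 15.7 at 200 to 250 kb, 67.2 ± 13.1 at 250 to 300 kb, 61.8 ± 7.80 at 300 to 350 kb and 48.6 ± 21.7 at 350 to 400 kb. The HC11 means were 138.5 ± 11.2, 140.4 ± 26.3, 66.0 ± 13.8, 88.1 ± 7.58, 69.8 ± 9.82 and 71.7 ± 2.65 RPM per end (SD, n = 3) over the same steps. Beyond 200 kb, neighbouring steps differed in BC44 by less than the larger of their SDs. The HC11 mean at 250 to 300 kb stood above both of its neighbours by more than the SD of each step. The nearest 100 kb, from 100 to 200 kb, held 45.5%, 45.4% and 55.8% of flank reads in BC44 against 48.7%, 48.2% and 45.7% in HC11.

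**Figure D1:**
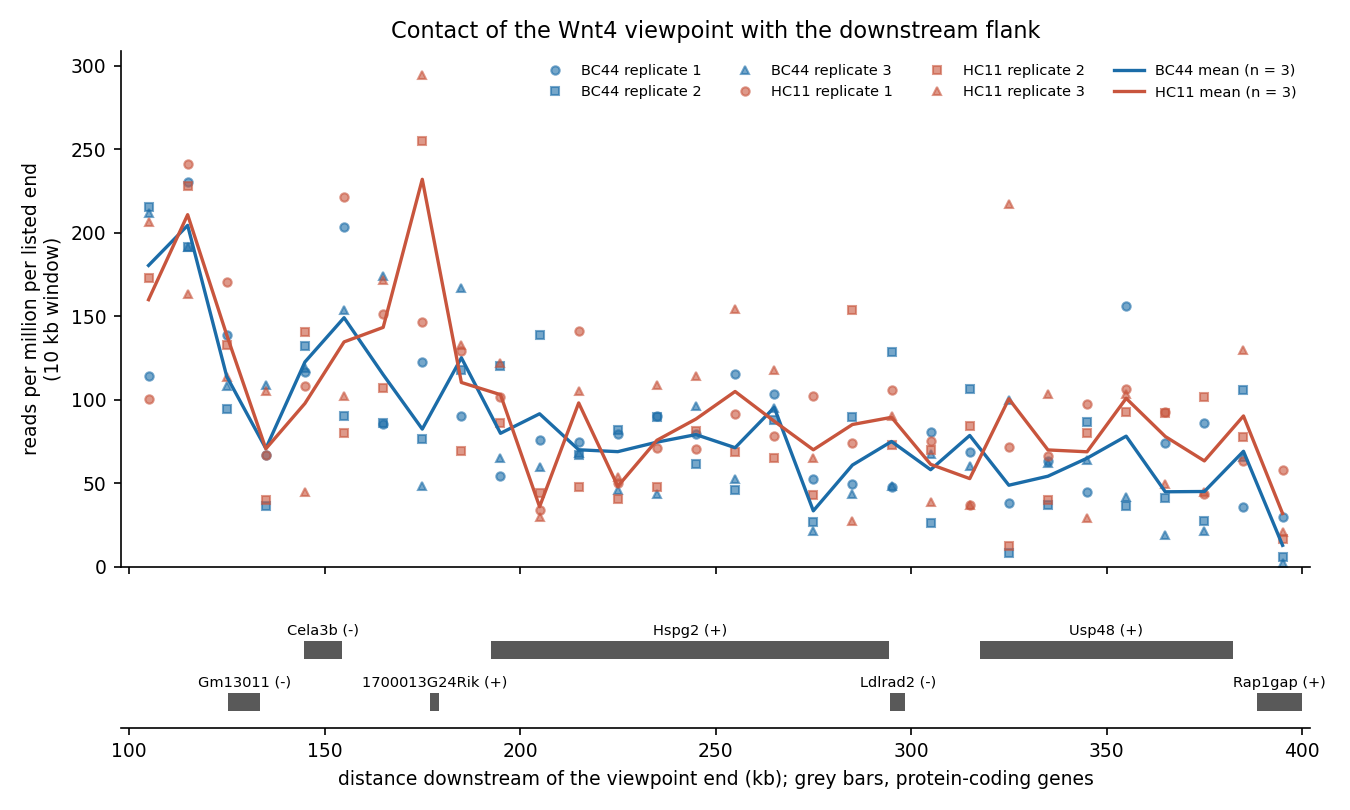
Contact along the flank: RPM per listed end (y) in 10 kb windows against distance from the viewpoint end in kb (x), with a point for each library, lines for the mean of each cell line (n = 3) and grey bars for protein-coding genes. Window means are 204 (BC44) and 211 (HC11) RPM per end at 110 to 120 kb. They are 69.1 (BC44) and 90.25 (HC11) at 380 to 390 kb and 12.7 (BC44) and 31.8 (HC11) in the last window. The HC11 mean alone peaks at 170 to 180 kb, at 232 RPM per end.

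The flank was poorer in contact than the stretch at the same distances on the other side of the viewpoint. It averaged 85.1 ± 4.20 RPM per end in BC44 and 95.7 ± 8.002 in HC11 (SD, n = 3), while the 812 listed ends 100 to 400 kb upstream averaged 209.8 ± 19.0 and 222 ± 37.5. The log2 ratio of flank to upstream was −1.07, −1.37 and −1.46 in BC44 against −1.38, −1.37 and −0.86 in HC11. All 6 libraries lay below 0, and the mean was −1.25 ± 0.23 (SD, n = 6), which is 2.38 times more reads per end upstream. An exact sign-flip permutation test over the 6 libraries gave a two-sided p of 0.03125, the smallest it can give. It treated the libraries as independent, although same-numbered libraries of the lines deviated together. The ratio was also added after the data were seen, so this p is a description. The contrast was largest near the viewpoint: at 100 to 150 kb the upstream mean over the 6 libraries was 452 RPM per end against 139 in the flank, and at 350 to 400 kb 112 against 60.2. Counted as captured ends (ends with at least 1 read) in place of reads, the mean log2 ratio was −0.42. With any 1 library left out the mean was −1.33 to −1.21, where an exact permutation over 5 libraries cannot go below its p of 0.0625.

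Inside the flank, the ends in coding genes carried fewer reads than those between genes. The 541 ends in coding genes averaged 73.5 ± 9.93 RPM per end in BC44 and 83.3 ± 8.46 in HC11 (SD, n = 3), and the 263 ends between them 109 ± 12.8 and 121 ± 12.3. The log2 ratio of genes to the stretches between was −0.38, −0.35 and −0.97 in BC44 against −0.36, −0.59 and −0.67 in HC11, a mean of −0.56 ± 0.24 (SD, n = 6; two-sided exact sign-flip permutation p = 0.03125, 0.0625 after Benjamini-Hochberg adjustment over this ratio and the next). After division by a background that falls with distance (isotonic regression on a running mean over 21 ends), the ratio was 0.07, 0.19 and −0.05 in BC44 and 0.27, 0.12 and −0.16 in HC11. Its mean was 0.07 ± 0.16, with 4 of 6 libraries above 0 (exact sign-flip permutation p = 0.3125). With distance divided out, the libraries lay on both sides of 0. The background was fitted on the same reads, mostly at ends in genes, which can draw this ratio towards 0. The test therefore cannot decide whether distance accounts for the lower level in genes. Both tests treated the libraries as independent, although same-numbered libraries of the lines deviated together.

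**Figure D2:**
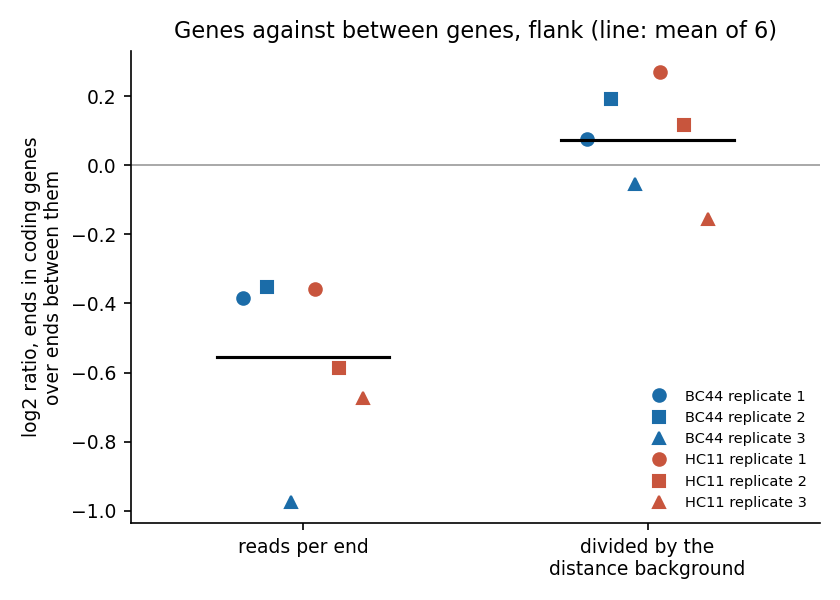
Log2 ratio of reads per listed end in coding genes to reads per listed end between them (y), as counted and after division by the distance background (x), with a symbol for each of the 6 libraries and a black line for their mean. All libraries lie below 0 as counted, and 4 of 6 lie above 0 with distance divided out.

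Gene by gene, among those with enough reads for a test, the 2 elastase genes nearest the viewpoint had the highest mean levels in both lines and Rap1gap the lowest. Cela3b had the highest mean of the coding genes in both lines, with 187, 197 and 197 RPM per end in BC44 against 248, 197 and 86.0 in HC11. The BC44 libraries lay close together and the HC11 libraries spread across them on both sides. Gm13011, nearer to the viewpoint, averaged 104 ± 32.1 RPM per end in BC44 and 113 ± 65.5 in HC11, below Cela3b in every library. The 28 ends between these 2 elastase genes averaged only 54.2 ± 16.1 and 53.9 ± 19.4 RPM per end.

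Hspg2, the largest gene of the flank with 297 listed ends, averaged 72.5 ± 11.3 RPM per end in BC44 and 78.5 ± 11.3 in HC11. Its libraries ran from 59.5 to 79.3 in BC44 and from 65.7 to 87.2 in HC11 and overlapped. Ldlrad2 (9 ends) averaged 65.0 ± 44.4 and 105 ± 35.9. The 3 ends of 1700013G24Rik had 10, 28 and 0 reads in BC44 against 5, 0 and 3 in HC11, too few for a test, although ends just before the gene were among the strongest of the flank. The 31 Rap1gap ends inside the flank were lowest of the genes tested, at 28.7, 4.94 and 3.83 RPM per end in BC44 against 50.4, 14.8 and 19.1 in HC11.

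Usp48 and the first stretch of the flank, before Gm13011, stood above the distance background in every library. The ratio to that background averaged 1.17 ± 0.069 (SD, n = 6) over Usp48, with all 6 libraries between 1.10 and 1.30, and 1.14 ± 0.090 over that first stretch. Cela3b averaged 1.499 ± 0.456 and was above 1 in 5 of 6 libraries, the exception being HC11 replicate 3 at 0.662. Hspg2 lay at its background (0.972 ± 0.036). The stretch between Gm13011 and Cela3b averaged 0.429 ± 0.103 and was below 1 in all 6 libraries. These ratios are descriptions, since the background was fitted on the same reads.

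**Figure D3:**
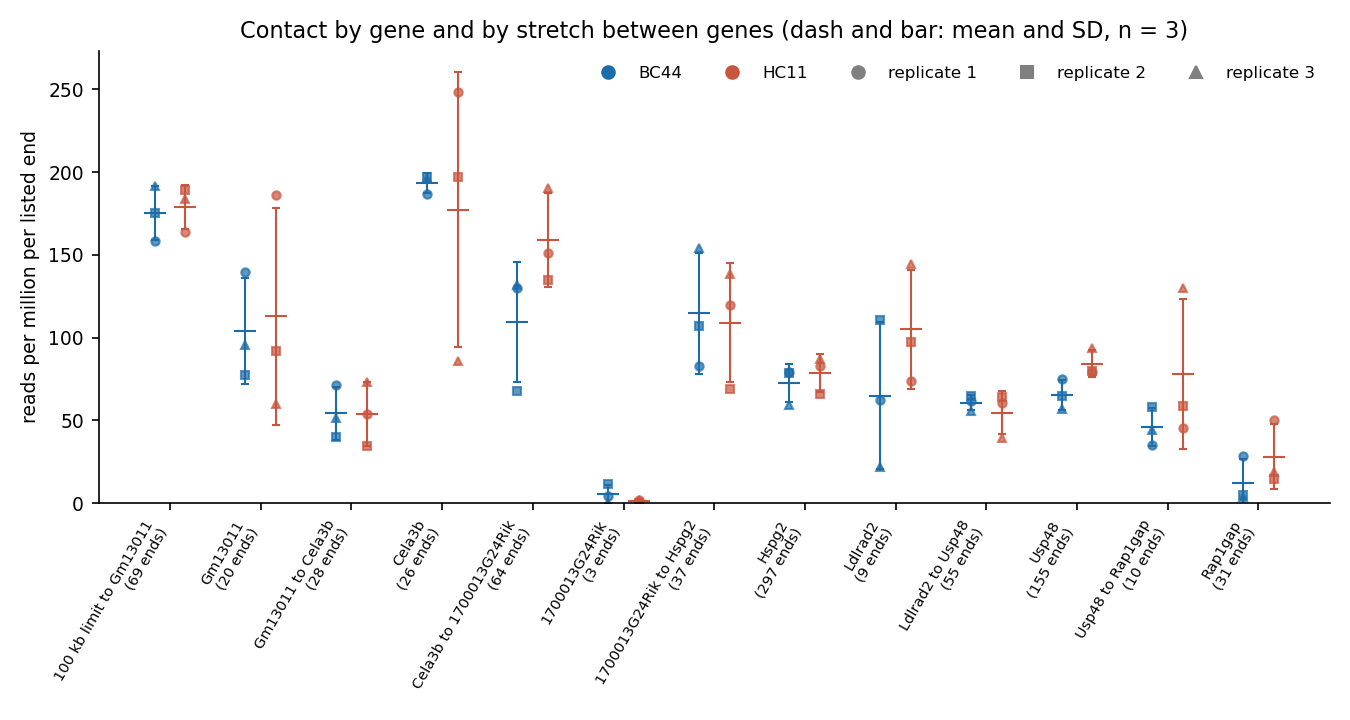
RPM per listed end (y) in each coding gene and in each stretch between genes, in order from the viewpoint (x, with the number of listed ends), as a point per library with mean and SD (n = 3) in BC44 (blue) and HC11 (red). Levels fall from 175 to 194 RPM per end in BC44 at the first stretch and Cela3b to 12.5 at Rap1gap, and the lines overlap except at Usp48 and in the stretch between Cela3b and 1700013G24Rik, where HC11 lies above.

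The lines were then compared, the question being whether the viewpoint reached the flank differently in BC44 and HC11. No measure of the flank as a whole differed between them past the threshold. The flank took 15.8%, 13.2% and 12.6% of the reads 10 to 400 kb away on both sides in BC44 against 15.0%, 14.4% and 17.2% in HC11. The lines overlapped, and the means were 13.9 ± 1.68% and 15.5 ± 1.48%, a difference of 1.65 percentage points (two-sided exact permutation p = 0.3, adjusted 0.8 over 8 measures; with 3 libraries against 3 the smallest p is 0.1). The difference varied with the replicate number. It was −0.79 points within the replicate 1 pair, which has the high share at the viewpoint end, 1.18 within the replicate 2 pair and 4.57 within the replicate 3 pair. The 95% Wilson interval of each library's share was at most 0.645 points wide. It covers counting error only, with PCR copies counted as separate reads, so it cannot show whether these differences exceed the spread between libraries.

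As a share of all reads outside 2 kb, the flank held 6.85 ± 0.338% in BC44 and 7.69 ± 0.643% in HC11 (SD, n = 3), with HC11 higher in 3 of 3 same-numbered pairs (exact permutation p = 0.2, adjusted 0.8). Of the reads 100 to 400 kb away on both sides it held 28.8 ± 2.92% and 30.2 ± 4.40% (p = 0.7 by the same exact permutation test), and of the downstream reads 10 to 400 kb away 50.4 ± 2.36% and 49.6 ± 2.75% (exact permutation p = 0.8). Reads per end fell with distance with a log-log slope of −0.71, −0.96 and −1.32 in BC44 against −0.75, −0.70 and −0.63 in HC11. BC44 replicate 1 lay among the HC11 libraries and the other BC44 libraries were steeper (−0.998 ± 0.303 against −0.69 ± 0.059; exact permutation p = 0.2, adjusted 0.8). The share of flank reads 100 to 200 kb away (48.9 ± 5.97% against 47.5 ± 1.604%) had an exact permutation p of 1. At 250 to 300 kb, the far part of Hspg2, all HC11 libraries (79.8 to 94.5 RPM per end) lay above all BC44 libraries (52.3 to 76.8), but as a 50 kb window the step had a log2 fold change of 0.25 with a standard error of 0.21 (edgeR adjusted p = 0.407). The stretch 10 to 100 kb downstream, next to the flank, showed the same order, with 281 to 312 RPM per end in BC44 and 329 to 349 in HC11. Upstream, the lines were also separate at 350 to 400 kb, with HC11 higher (109 to 140 RPM per end against 85.7 to 103 in BC44). They were separate in the opposite direction at 150 to 200 kb upstream, with 380 to 407 RPM per end in BC44 and 293 to 356 in HC11. In the remaining 50 kb steps from 100 to 400 kb on both sides the lines overlapped.

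Windows of 10 kb located where the lines differed most. With edgeR's quasi-likelihood test and Benjamini-Hochberg adjustment over the 78 windows from 10 to 400 kb on both sides, 0 were called (0% of those tested), and so 0 of the 30 in the flank. At an unadjusted edgeR p under 0.05 there were 11 windows in all (14.1%) and 2 in the flank, and DESeq2 called 0 as well, with 9 windows under 0.05 unadjusted (11.5%), 2 of them in the flank. The lines did not overlap in 12 of the 78 windows (15.4%) and in 2 of the 30 flank windows (6.67%), with HC11 above in 1 (3.33%, against 7.69% of all) and BC44 above in 1. With the replicate number as a block, edgeR called 2 of the 78 (2.56%), neither in the flank, and 10 windows were under 0.05 unadjusted (12.8%), 1 of them in the flank. Same-numbered libraries of the 2 lines deviated together, as described in the processing section. Standard errors of the log2 fold changes had a median of 0.48 in flank windows against 0.33 in the others, which limits the size of difference that could be detected here.

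The window with the lowest p in the flank lay in Hspg2, 200 to 210 kb from the viewpoint (chr4:137032109-137042108; 35 ends). It had 75.9, 139 and 59.9 RPM per end in BC44 against 33.7, 44.2 and 29.8 in HC11. All BC44 libraries were above all HC11 libraries, and the log2 fold change (HC11 over BC44) was −1.48 with a standard error of 0.45. edgeR gave it an unadjusted p of 0.00633 and an adjusted p of 0.164, or 0.0827 with the replicate block. The DESeq2 adjusted p was 0.0569. The log2 fold change was −1.62 without the strongest end of every 10 kb window and −0.51 when captured ends were counted. In HC11 this window held the lowest ratio to the distance background in the whole flank, 0.182 ± 0.098 (SD, n = 3) at 201.4 kb, where BC44 had 0.981 ± 0.324. That position was chosen for its low HC11 mean, from the same reads, so the higher BC44 value there adds no support.

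The other flank window without overlap, 170 to 180 kb from the viewpoint (chr4:137002109-137012108; 19 ends), holds 1700013G24Rik and the region before it. Its levels were 123, 76.2 and 48.2 RPM per end in BC44 against 147, 255 and 294 in HC11. HC11 was higher in each library, with a log2 fold change of 1.39 (standard error 0.46; edgeR adjusted p = 0.201, 0.361 with the replicate block). The DESeq2 adjusted p for this window was 0.0569. In each library a single end carried 28.0% to 90.8% of the window's reads. With the strongest end of every 10 kb window left out, the log2 fold change here was 0.17. The end left out of this window, by RPM summed over libraries, was that at 137007476. Counted as captured ends, the log2 fold change was −0.24.

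The remaining 3 of the 5 flank windows with the lowest p overlapped between lines. They lay in Hspg2 at 270 to 280 kb (log2 fold change 0.91, edgeR adjusted p = 0.531) and at 220 to 230 kb (−0.64, edgeR adjusted p = 0.614), and over the start of Usp48 at 310 to 320 kb (−0.69, edgeR adjusted p = 0.614). Over the 30 flank windows the median log2 fold change was 0.13, against 0.08 over all windows, and 17 were above 0 (56.7%, against 55.1% of all). edgeR's scaling set the log2 fold changes 0.13 lower at the median than the RPM values above.

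**Figure D4:**
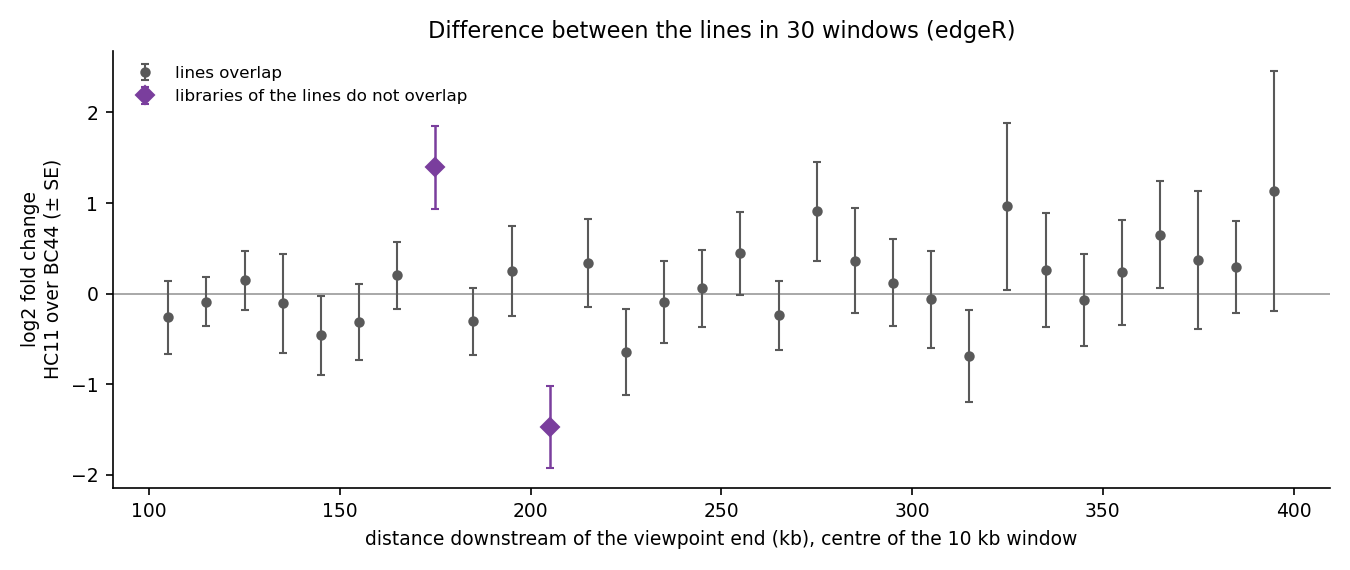
Log2 fold change, HC11 over BC44, with a standard error derived from edgeR's F statistic (y) in the 30 windows of 10 kb against distance in kb (x). Purple diamonds mark the 2 windows whose libraries do not overlap between lines, at 1.39 (170 to 180 kb) and −1.48 (200 to 210 kb), and no window passed the adjusted threshold.

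In windows of 20 kb, edgeR called 4 of 40 (10%) and 0 of the 15 in the flank. The lowest adjusted p in the flank was 0.203 (edgeR), at 160 to 180 kb, where the levels were 99.1, 82.3 and 128 RPM per end in BC44 against 149.8, 161 and 216 in HC11.

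By gene, 0 of the 28 genes and stretches tested were called by edgeR (0%), and 0 of the 12 in the flank, where none had an unadjusted p under 0.05 (2 of 28, 7.14%, in all). DESeq2 called 1 of the 28, outside the flank, with 4 under 0.05 unadjusted (14.3%) and 0 of them in the flank. With the replicate block, edgeR called 0, and 3 of the 28 (10.7%) were under 0.05 unadjusted, 1 of them in the flank. That feature was Rap1gap, at a log2 fold change of 1.44 (edgeR unadjusted p = 0.0293, adjusted 0.406). The lines did not overlap in 6 of the 28 (21.4%) and in 2 of the 12 flank features (16.7%), both with HC11 above (17.9% of all; BC44 was above in 3.57% of all). The log2 fold change was above 0 in 6 of the 12 (50%, against 57.1% of all). The first feature without overlap was Usp48, with 74.9, 64.6 and 57.0 RPM per end in BC44 against 79.5, 79.8 and 93.6 in HC11. HC11 was higher throughout, but the log2 fold change was 0.26 with a standard error of 0.24 (edgeR adjusted p = 0.632), and it turned to −0.08 without the strongest end of each window. The second was the stretch between Cela3b and 1700013G24Rik, with 110 ± 36.4 RPM per end in BC44 and 159 ± 28.4 in HC11 (SD, n = 3; log2 fold change 0.40, edgeR adjusted p = 0.561), which contains the strong end of the 170 to 180 kb window.

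For the other genes the log2 fold change was 0.01 in Hspg2 (standard error 0.21), −0.06 in Gm13011 (0.48), −0.28 in Cela3b (0.34), 0.68 in Ldlrad2 (0.70) and 1.01 in the Rap1gap part (0.77). The lowest edgeR adjusted p among these 5 genes was 0.591, for Rap1gap. With 1 library left out at a time, the log2 fold change ran from 0.29 to 2.54 in the Rap1gap part and from 0.16 to 1.195 in Ldlrad2. Hspg2, with the most ends, had the smallest standard error of these genes. Along its first windows of 10 kb, from 190 to 230 kb, the sign of the log2 fold change alternated (0.25, −1.48, 0.34 and −0.64). None of these windows was a called difference.

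Levels near gene starts (ends within 5 kb of the annotated start) are given as values with no test. The lines did not overlap at 3 of the 10 starts in the flank, against 6 of the 25 starts 10 to 400 kb away on both sides (24%), some of which share ends. Around the Usp48 start the levels were 91.2, 118 and 90.0 RPM per end in BC44 against 34.7, 85.3 and 50.5 in HC11. The BC44 libraries were higher there, although HC11 was higher over the gene as a whole. BC44 had its highest ratio to the distance background in the flank at this start, 1.91 ± 0.335 (SD, n = 3) at 318 kb, against 0.765 ± 0.4999 in HC11. That place was chosen for its high BC44 mean, from the same reads, so the lower HC11 value there adds no support. Around the 1700013G24Rik start BC44 had 105 ± 9.12 and HC11 269.8 ± 50.1 RPM per end, an order that rested on the end at 137007476. Without it the values were 119.7, 103 and 97.7 in BC44 and 189, 68.8 and 204 in HC11, which overlapped. At the start of the pseudogene Gm13004 HC11 was above, with 183, 208 and 161 RPM per end against 152, 111 and 153 in BC44. At the other 7 starts the lines overlapped, Hspg2 among them at 90.2 ± 42.9 and 113 ± 24.3.

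Single ends varied far more than windows or genes. The strongest flank end, at 137007476 (175 kb away, 1723 bp before 1700013G24Rik), had 27, 0 and 185 reads in BC44 against 752, 412 and 1574 reads in HC11. In RPM this is 32.9, 0 and 201.3 in BC44 and 781, 4391 and 2576 in HC11, so every HC11 library was above every BC44 library. The end was chosen for its high mean over all libraries, so this order is a description. Such an order was found at 20 of the 804 flank ends, against 2.8% of the listed ends 10 to 400 kb away on both sides, and the opposite order at 19, against 2.94%. Its neighbour across the same GATC site, the fragment whose far end at 137008714 had the sixth highest mean, had 433, 799 and 0 reads in BC44 and 261, 0 and 1357 in HC11, with no such order.

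The end with the next highest mean, at 136945215 (113 kb away; sequence above), had 1553, 2846 and 401 RPM in BC44 against 622, 117 and 520.5 in HC11. These lines overlapped. The Cela3b intron end at 136983876 had 416, 1653 and 906 RPM in BC44 and 1208, 266 and 466 in HC11, which also overlapped. The Hspg2 intron end at 137062192, the last of the 10, had 0, 749 and 2.18 RPM in BC44 against 0, 735 and 2231 in HC11. It had reads in 4 libraries, and the highest value stood in HC11 replicate 3. The share of flank reads at the 10 strongest ends of each library averaged 18.8 ± 5.12% in BC44 and 20.7 ± 4.46% in HC11 (exact permutation p = 0.7).

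**Figure D5:**
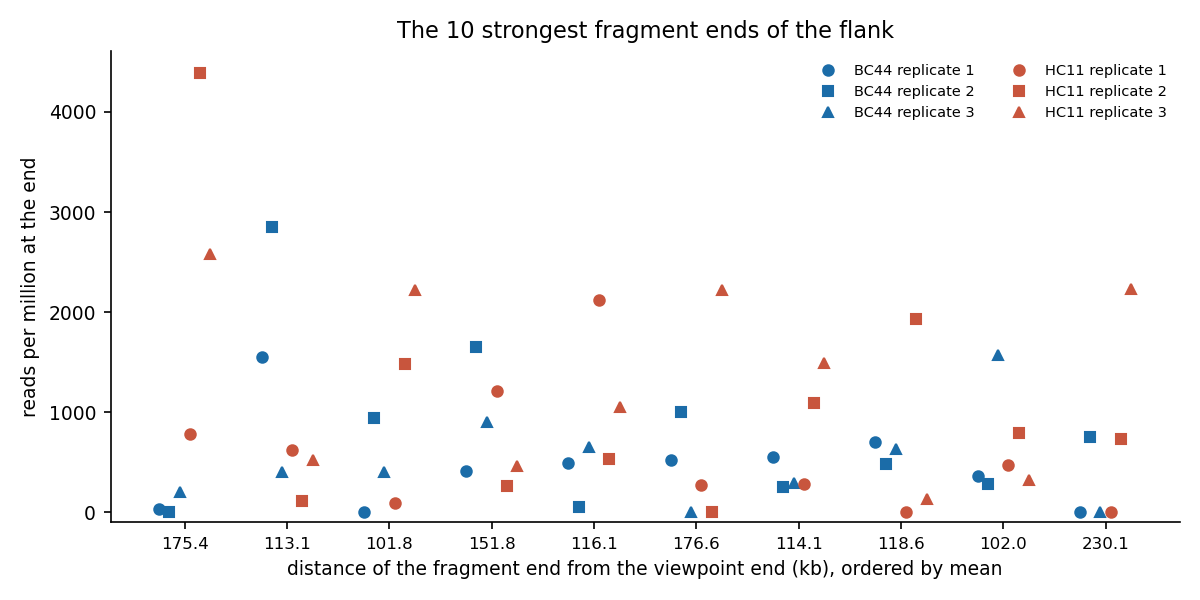
RPM (y) at the 10 flank ends with the highest mean over libraries, ordered by that mean and labelled by distance from the viewpoint end in kb (x), with a symbol for each library. The first end, at 175.4 kb, averages 2583 RPM in HC11 and 78.0 in BC44, and libraries of one line differ several-fold at most ends.

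Which ends were captured differed between libraries of the same line as well as between lines. Of the 804 ends, 660 had reads in at least 1 library, 144 (17.9%) in none and 67 (8.33%) in all 6, and those 67 carried 22.6% of flank reads on average. Captured ends numbered 426, 359 and 353 in BC44 against 417, 304 and 360 in HC11, or 47.2 ± 5.04% and 44.8 ± 7.03% (exact permutation p = 0.7). In the flank 4 ends (0.498%) had reads in all BC44 and no HC11 library and 6 (0.746%) the reverse, against 0.474% for each among the listed ends 10 to 400 kb away on both sides. Thinned to 93823 reads per library, the captured shares were 39.9% and 40.8%. Any pair of libraries shared 61.8% to 70.5% of the captured ends of the smaller one, and the correlation of log2(RPM + 1) over the 804 ends, which share libraries and cut sites, was 0.274 to 0.363 within a line, 0.330 to 0.387 between same-numbered libraries of the lines and 0.215 to 0.364 in the other pairs.

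Capture also followed the cut sites. By the distance to the end of the first CATG, the captured share was 24.8% to 40% over the libraries for the 145 ends up to 50 bp, 46.3% to 55.8% for the 190 ends over 50 and up to 100 bp, 40.8% to 55.3% for the 228 ends over 100 and up to 200 bp, 42.9% to 65.1% for the 189 ends over 200 and up to 400 bp, and 9.62% to 36.5% for the 52 ends beyond 400 bp. The 3 middle groups overlapped, and the ends up to 50 bp and beyond 400 bp had lower captured shares than each of them in every library. The median distance to the end of the first CATG was 119.5 bp for the 144 ends captured in no library, 80 bp for those captured in 1, 124 to 136 bp for those captured in 2 to 5 and 164 bp for those captured in all 6, with no steady order.

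Since the study's title names GRHL and PGR, the first 300 bases from each end were searched on both strands for AACCNGTT, a grainyhead-like motif, and for TGTNCT, a half-site of the steroid receptor motif that PGR binds. Matches of the 2 patterns can share bases. The GRHL letters occurred at 6 of the 804 flank ends (0.746%), against 1.88% of all listed chromosome 4 ends, and the PGR half-site letters at 494 (61.4%), against 57.7%. Of the 6 sequences printed, none held the GRHL letters, and those of the ends at 136934155 and 137007476 held the half-site letters 3 times each. These are matches of letters in a window and not binding sites.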

How the data were processed

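The deposited tables, 1 per library, hold raw counts of reads at fragment ends of chromosome 4. The authors used the de Wit group's public 4C pipeline with its defaults and mm9 (per the series' design text), on first reads only (per the labels' protocols). Why 804 of the 1572 possible flank ends were listed is not given in the sources used here.

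Counts were not filtered except for reads within 2 kb of the viewpoint end. Ends were placed in genes of GENCODE M1 (mm9), and RefSeq tables were used for names only (9 of 10 genes matched). Windows and genes were tested with edgeR 4.0.16 (TMM, quasi-likelihood; features with at least 10 reads in at least 3 libraries), with DESeq2 1.42.0 as an alternative, in R 4.3.3; fits were checked on simulated data. The standard errors given with edgeR are the absolute log2 fold change divided by the square root of the test's F statistic. Single values per library were compared with exact permutation tests (Python 3.11.15). Same-numbered libraries were treated as possible pairs across lines. Their deviations from the line means over 78 windows correlated at 0.143, 0.311 and 0.362, all above 0.1. The other pairs of libraries from different lines had −0.320 to 0.006. Deviations cancel within each line, so these correlations are not independent of each other. The block is printed where it changes a count of called features or of features under 0.05 unadjusted.

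All coding genes of the flank were named, with the 5 windows of lowest p and the 10 ends of highest mean. The members and lists were chosen with earlier results of these data known, and the upstream ratio, the 1 extra sequence, the motifs, the gene starts without the strongest end and the left-out libraries for 20 kb windows after the data were seen.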

Additional observations from a re-analysis of the deposited data

How the results depend on the processing

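The flank had 0 called windows and 0 called genes or stretches under all alternatives run, with a lowest adjusted p of 0.05004 (edgeR, replicates 2 and 3 only, the 170 to 180 kb window). The count over all 10 kb windows was 2 with the replicate block, 2 with a term for replicate 1, 2 without the strongest end of each window, 4 in 20 kb windows, 1 in 50 kb windows, and 0 to 1 without 1 library (1 without BC44 replicate 3). The 4 calls in 20 kb windows became 2 with the replicate block and 0 to 2 without 1 library (0 without BC44 replicate 3 or any HC11 library). Over genes and stretches it was 1 with DESeq2, 2 with replicates 2 and 3 only, and 0 to 1 without 1 library (1 without HC11 replicate 3). The replicate block changed no other call.

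The flank to upstream ratio was −1.33 to −1.21 without 1 library and −1.265 with replicates 2 and 3 only, where 5 or 4 libraries cannot reach the threshold. Whole-flank differences (HC11 minus BC44, percentage points), none past the threshold, changed sign as follows. The share of downstream reads was −1.90 to 0.779 without 1 library (0.587 without BC44 replicate 1, 0.779 without HC11 replicate 2) and 0.248 with replicates 2 and 3 only. The captured share was −5.89 to 1.14 without 1 library (0.539 without BC44 replicate 1, 1.14 without HC11 replicate 2) and 0.871 thinned. Without 1 library, the top 10 share was −0.598 (BC44 replicate 1) to 4.51, the 100 to 200 kb share −3.10 to 2.10 (BC44 replicate 3), and the share of 100 to 400 kb reads −1.13 (HC11 replicate 3) to 3.05. With captured ends, the shares of 10 to 400 kb and 100 to 400 kb reads were −0.627 and −1.09. The distance-divided gene ratio was −0.013 with an outer limit of 300 kb.

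Among log2 fold changes, Gm13011 was 0.065 without TMM and −0.62 to 0.21 without 1 library, above 0 without BC44 replicate 1, HC11 replicate 2 or HC11 replicate 3. Hspg2 was −0.090 with DESeq2, −0.10 with captured ends, −0.096 without the strongest ends, −0.031 with replicates 2 and 3 only and −0.20 to 0.12 without 1 library, below 0 without BC44 replicate 3, HC11 replicate 1 or HC11 replicate 3. Usp48 was −0.082 without the strongest ends, and the 170 to 180 kb window −0.24 with captured ends. Where no cause is given by the setting itself, the cause was not tested. Depth limits HC11 replicate 2 most, at 8.11 reads per flank end.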
